A study of Mus musculus with 60 samples.

Results

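The 10 genes described here are the hepcidin genes Hamp and Hamp2 and the mouse genes for the main proteins that carry, take up, export and store iron, namely Trf, Tfrc, Tfr2, Slc40a1, Fth1, Ftl1, Hmox1 and Cp. They were chosen by name for their place in iron handling, and all 10 were found among the 19355 genes of a table of hepatocyte cultures and among the 17473 genes of a table of regenerating livers. The study grew mouse hepatocytes in medium with interleukin 6 (IL6) and followed livers after removal of part of the organ. RNA with a poly(A) tail was sequenced, and levels were given as FPKM, a count of fragments divided by transcript length and by library size.

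All samples are labelled as C57BL/6 and wild type, and every group held 3 samples. The culture table held 33 samples: freshly isolated hepatocytes, cells at day 3 and day 14 of the primary culture with IL6 (IL6-iHPCs D3 and D14, passage P0), and 4 passaged lines of IL6-induced hepatic progenitor cells (IL6-iHPCs) called mouse-1 at P10, mouse-2 at P10, mouse-1 at P35 and clone-1 at P20. Each of the 4 lines was also measured after a change to maturation medium, as IL6-iMHs. By their labels mouse-1 at P10 and mouse-1 at P35 come from the same mouse, so the 4 lines are not 4 separate origins. Averages over lines and the test between lines count these cultures separately. The expansion medium held IL6, epidermal and hepatocyte growth factors, dexamethasone and a supplement of insulin, transferrin and selenium, and the maturation medium held dexamethasone, oncostatin M and the same supplement, so iron-carrying protein was supplied to all cultured cells. Clone-1 is a line grown from a single cell. The study describes clones from hepatocytes marked with tdTomato through an Albumin-Cre cross, and whether clone-1 is one of these is not settled by its wild type label. The 18 liver samples were normal livers and livers after 2/3 partial hepatectomy (PHX), taken 6 h and 24 h after surgery and then 3, 7 and 14 days after it. The study calls its culture replicates technical repeats, and nothing states that the liver samples were separate animals, so the p-values measure only the spread between these samples.

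Hepcidin is a small hormone that the liver releases when iron is plentiful or during inflammation. It binds ferroportin, the product of Slc40a1 and the only known iron exporter of mammalian cells, and has it degraded. Its gene is switched on through bone morphogenetic proteins (BMPs), hemojuvelin and SMAD factors on the iron side and through IL6 and STAT3 on the inflammatory side. Inside cells the iron regulatory proteins (IRPs) bind hairpins called iron-responsive elements (IREs) when iron is scarce, which protects the mRNA of the transferrin receptor Tfrc and blocks translation of ferritin and ferroportin mRNA. An mRNA level shows the Tfrc side of this switch and not the block of translation.

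The hepcidin promoters are shown because both arms of the regulation act on them. Hamp lies on chromosome 7 at 30942368 to 30944032 and Hamp2 at 30922372 to 30924681, both on the minus strand (GRCm38, GENCODE). The 250 bases before the RefSeq start of each gene are given (GRCm38.p6, minus strand, 5′ to 3′), with capitals for matches to the STAT motif TTCNNNGAA and to the SMAD1/5 motif GGCGCC, which were searched on both strands and do not overlap each other. For Hamp2, GENCODE also lists a transcript that starts upstream of the printed window, so the window lies in the first intron of that transcript and inside the span given above.
Hamp, chr7:30944030-30944279: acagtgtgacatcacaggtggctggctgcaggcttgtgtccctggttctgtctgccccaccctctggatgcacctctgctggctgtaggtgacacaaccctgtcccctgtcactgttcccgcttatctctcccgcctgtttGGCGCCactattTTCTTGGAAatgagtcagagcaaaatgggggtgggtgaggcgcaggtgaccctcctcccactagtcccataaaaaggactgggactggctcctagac
Hamp2, chr7:30924182-30924431: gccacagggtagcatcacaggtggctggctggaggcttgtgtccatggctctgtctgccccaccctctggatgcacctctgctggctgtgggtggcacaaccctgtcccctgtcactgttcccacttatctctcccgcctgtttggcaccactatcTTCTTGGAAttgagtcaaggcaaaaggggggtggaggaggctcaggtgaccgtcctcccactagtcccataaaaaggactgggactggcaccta
The 2 promoters were identical at 230 of 256 aligned columns (89.84%). Both held the STAT match TTCTTGGAA, 97 to 89 bases before the start in Hamp and 94 to 86 in Hamp2. The SMAD1/5 match lay 109 to 104 bases before the start of Hamp, and the Hamp2 window held none. Of 32817 mouse promoters of this length, 7.015% held the STAT motif, 9.586% the SMAD1/5 motif and 0.3657% both. The transcripts of the 2 genes were 89.04% identical over 438 aligned columns, so reads of each could be assigned to the other and the values of Hamp2 in particular are uncertain. Among the other members, Tfrc held a SMAD1/5 match 89 to 84 bases before its start, and none of the 7 members in the promoter table held the NRF2 and BACH1 motif TGACNNNGC, which 10.16% of promoters held. Hmox1, Slc40a1 and Trf were not searched.

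The IREs are shown because they divide the members into those whose mRNA the IRPs protect and those whose translation they block. A search of GRCm38 transcripts for the loop CAGTGN on a stem of 5 pairs with a bulged C found 7 such hairpins in 4 members, each given with 12 bases before and 11 after the loop, which is in capitals.
Fth1, 5′ UTR, chr19:9982732-9982760, plus strand: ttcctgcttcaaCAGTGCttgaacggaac
Ftl1, 5′ UTR, chr7:45459779-45459807, minus strand: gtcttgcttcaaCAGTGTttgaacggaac
Slc40a1, 5′ UTR, chr1:45925465-45925493, minus strand: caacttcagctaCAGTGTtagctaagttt
Tfrc, 3′ UTR, chr16:32631219-32631247, plus strand: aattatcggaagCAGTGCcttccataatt
Tfrc, 3′ UTR, chr16:32631598-32631626, plus strand: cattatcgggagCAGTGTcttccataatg
Tfrc, 3′ UTR, chr16:32631663-32631691, plus strand: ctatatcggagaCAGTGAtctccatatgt
Tfrc, 3′ UTR, chr16:32631710-32631738, plus strand: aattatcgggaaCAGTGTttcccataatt
Such a hairpin was found in the 5′ UTR of 31 of 20899 genes (0.148%) and in the 3′ UTR of 129 of 21028 genes (0.613%). The ferritin genes differed in the last base of the loop and shared the stem, and the 4 Tfrc hairpins lay within its 3′ UTR on chromosome 16. No such hairpin was found in the UTRs of the other 6 members, which lie on chromosome 7 (Hamp, Hamp2), 9 (Trf), 5 (Tfr2), 8 (Hmox1) and 3 (Cp).

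Reads assigned to genes ranged from 49.29 M to 88.83 M per culture sample (median 60.79 M) and from 51.82 M to 78.72 M per liver sample (median 57.12 M). Summed hepatocyte markers, 7 genes that include albumin, ranged from 71461 to 77087 FPKM in isolated hepatocytes, 1894 to 9907 in passaged IL6-iHPCs and 59357 to 80704 in IL6-iMHs. Genes were tested with limma on log2(FPKM + 1), a scale that understates changes of low genes, and a change was called at a Benjamini-Hochberg adjusted p under 0.05 and at least 2-fold. In passaged IL6-iHPCs, averaged over lines, 5 of the 7 hepatocyte markers were called lower than in hepatocytes (background 11.3% of all genes). Apob was called higher (log2 change 2.76, background 48.1%). In IL6-iMHs 2 of the 7 were called lower than in hepatocytes, led by Tat (−2.69, background 7.79%), and none higher (background 24.8%). The median gene lay 1.14 (log2) above hepatocytes at D3, 1.00 above at D14 and 0.93 above in passaged IL6-iHPCs, so a member with no change there stood below the median gene. The members' changes in the comparisons of groups and of averaged lines were therefore also computed after quantile normalization and after making the sample medians equal.

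In culture both hepcidin genes fell, while Tfrc, Hmox1 and Cp rose. At D3 against hepatocytes, 3 of the 10 members rose (Tfrc, Hmox1, Cp), against 53.9% of all 12328 genes tested, and 3 fell (Hamp, Hamp2, Tfr2), against 12.1%. At D14 it was 4 up (those 3 and Fth1; background 50.0%) and 4 down (those 3 and Ftl1; background 12.9%). In the 4 passaged IL6-iHPC lines, averaged, 4 rose (Tfrc, Fth1, Hmox1, Cp; background 48.1%) and 4 fell (Hamp, Hamp2, Tfr2, Slc40a1; background 11.3%). The members' median log2 change was 0.39, −0.09 and −0.55 in these 3 comparisons, each below that of all genes, and the highest adjusted p among the called members was 1.1e-15, 1.5e-13 and 3.0e-17. The 3 comparisons share the hepatocyte samples. All 10 members passed the filter on low values, Hamp2 in culture only through the hepatocytes.

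Hamp was among the abundant transcripts of isolated hepatocytes, at 1196, 1109 and 1019 FPKM. At D3 its level was 14.2, 9.56 and 13.3 FPKM, and at D14 it was 0.853, 0.474 and 1.69. Hepatocytes stood 89.7-fold above D3 (log2 change −6.39 ± 0.18 SE, limma adjusted p = 4.5e-24), and Hamp fell again from D3 to D14 (−2.76 ± 0.18, adjusted p = 4.4e-14). Among passaged IL6-iHPCs the 3 samples of mouse-1 at P10 had 0.0514, 0.445 and 0.0484 FPKM, those of mouse-2 at P10 had 0.177, 0.141 and 0.0782, and mouse-1 at P35 had 1.44, 0.830 and 1.90. Clone-1 stood above the other lines at 20.6, 23.9 and 25.5 FPKM, a log2 change of −5.51 ± 0.18 against hepatocytes.

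Hamp stayed low after maturation. The IL6-iMHs had 0, 0.250 and 0 FPKM in mouse-1 at P10, 0 in all 3 samples of mouse-2 at P10, 1.06, 0.598 and 0.406 in mouse-1 at P35, and 15.1, 12.2 and 14.0 in clone-1. A limit of 3 reads in a library puts mouse-2 at P10 at least 9232-fold below the hepatocytes. Against the IL6-iHPCs the change was −0.38 ± 0.09 over the 4 lines, under the 2-fold limit. It was 0.17 with medians made equal and a called fall of −1.61 by limma-voom on the recovered reads (adjusted p = 0.00078), and a difference between lines missed the threshold (adjusted p = 0.080). In the order of Hamp levels, hepatocytes came first, then clone-1 IL6-iHPCs, then clone-1 IL6-iMHs and D3, whose ranges overlapped. Mouse-1 IL6-iHPCs at P35, D14 and mouse-1 IL6-iMHs at P35 overlapped one another next, and the P10 cells of both mice had the lowest means. Mouse-1 IL6-iHPCs at P10 reached 0.445 FPKM and so overlapped mouse-1 IL6-iMHs at P35, which went down to 0.406. Between P10 and P35 Hamp of mouse-1 IL6-iHPCs rose by 1.01 ± 0.18 (adjusted p = 7.2e-06), from a mean of 0.181 to 1.39 FPKM. At such low levels the size depends on the pseudocount of 1 FPKM, and it was 2.62 with a pseudocount of 0.1 and 3.28 by limma-voom. The call was lost when any of 4 samples was left out (lowest value 0.86), under quantile normalization (0.78) and with medians made equal (0.61).

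Hamp2, the near copy of Hamp, had 29.2, 22.9 and 25.7 FPKM in hepatocytes, 0.0234 ± 0.0024 (SD, n = 3) of the Hamp level. In the 30 cultured samples it had no read in 25, at most 2 reads in any, and 7 reads in all. Mouse-1 IL6-iHPCs at P10, with no reads, lay at least 186-fold below hepatocytes. Differences between cultured groups were not detectable at this depth.

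**Figure D1:**
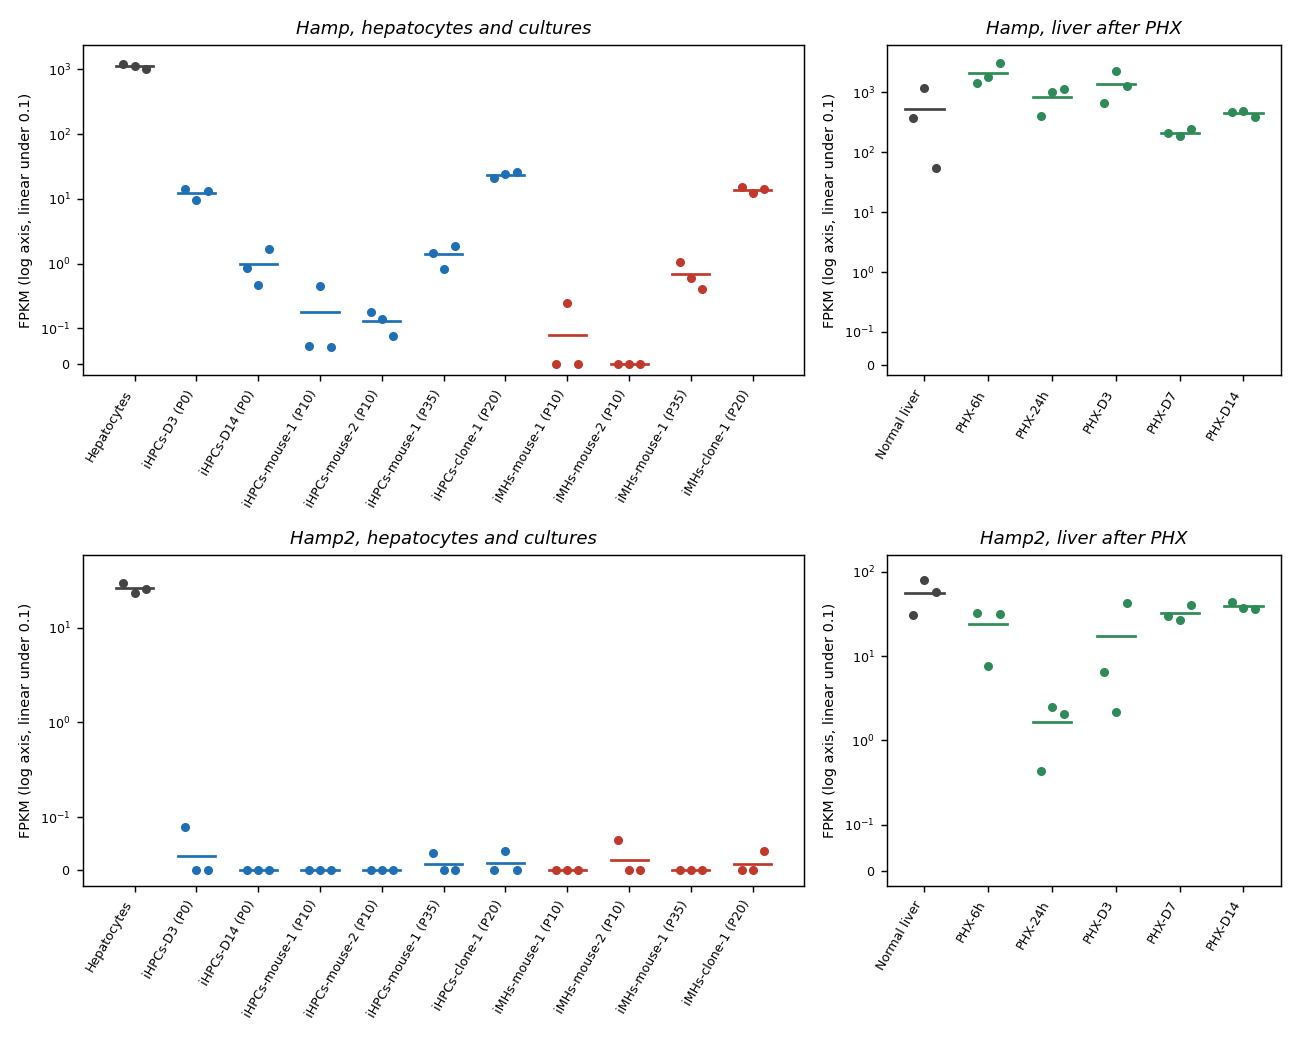
FPKM of Hamp (upper panels) and Hamp2 (lower panels) in each sample, on log axes that are linear under 0.1, with hepatocytes and cultures on the left and livers on the right. Points are samples and bars are group means (n = 3). Hamp falls from 1019 to 1196 FPKM in hepatocytes to 25.5 or less in all cultures, and Hamp2 falls to 2.48 or less at 24 h after hepatectomy.

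The regulators of hepcidin moved in both directions. In passaged IL6-iHPCs against hepatocytes, 12 of 20 genes of the BMP and SMAD arm rose and 4 fell, and 6 of 7 genes of the IL6 and STAT3 arm rose and none fell, against 48.1% of all genes that rose and 11.3% that fell. With medians made equal these counts became 6 up and 7 down, and 2 up and 0 down. The falls of Hjv and Tmprss6 held under both other scalings. Hjv (Hfe2 in the tables), the BMP co-receptor hemojuvelin, went from 45.4, 42.9 and 39.5 FPKM in hepatocytes to 4.81 ± 0.20 at D3 and 0.397 ± 0.12 at D14, and passaged IL6-iHPCs had means of 0.0142 to 1.24. Tmprss6, the protease that cuts hemojuvelin, fell from 256 ± 14 to between 0.248 and 14.4 FPKM. Id1, a target gene of BMP signalling, rose from 1.54 ± 0.32 FPKM to 12.6 and 6.96 in the P10 lines, 275 in mouse-1 at P35 and 556 in clone-1. Stat3 rose from 25.4 ± 2.5 to between 56.3 and 121 FPKM (log2 change 1.67 ± 0.06, and 0.43 with medians made equal). Socs3, the STAT3-induced inhibitor of IL6 signalling, was at 63.4 ± 3.2 FPKM in hepatocytes and between 56.1 and 102 in passaged IL6-iHPCs, a change of 0.24 ± 0.05 as deposited and −0.997 with medians made equal, under 2-fold in both. The isolated hepatocytes that served as reference were themselves far above normal livers, which had 4.66 ± 1.5 FPKM of Socs3. That difference was not tested.

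During maturation Hjv and Tmprss6 rose and Hamp did not. Hjv (Hfe2) rose by 4.76 ± 0.04 (log2) over the 4 lines, to group means of 25.8 to 47.6 FPKM, and Tmprss6 rose by 4.74 ± 0.04, to 95.8 to 188 FPKM. Bmp6, an iron-regulated BMP, rose from at most 0.131 FPKM in any passaged IL6-iHPC sample to group means of 0.854 to 3.94 (1.59 ± 0.04). Bmp2 was at or below 0.114 FPKM in all mouse-1 and mouse-2 samples of both stages, and at 0.527 ± 0.13 in clone-1 IL6-iHPCs and 2.97 ± 0.31 in clone-1 IL6-iMHs. Socs3 fell by 2.61 ± 0.03, to between 3.11 and 23.3 FPKM, and the inhibitory Smad7 fell by 1.07 ± 0.04, a change of −0.53 with medians made equal. Of the 20 genes of the BMP and SMAD arm 3 rose and 8 fell in maturation, against 6.68% and 21.4% of all genes, and with medians made equal 4 rose and 3 fell.

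The plasma iron carrier transferrin (Trf) stayed near its hepatocyte level. Its values were 6315, 6508 and 4806 FPKM in hepatocytes, and no group mean in culture but that of mouse-1 IL6-iHPCs at P35 (2508 ± 62) lay outside 5392 to 9035 FPKM. The change at D3 was 0.44 ± 0.11 as deposited but −1.02 with medians made equal, and that of passaged IL6-iHPCs was −0.14 ± 0.08 as deposited but 1.05 under quantile normalization. A direction for Trf in culture therefore depends on the scaling.

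Of the transferrin receptors, Tfrc rose and Tfr2 fell. Tfrc, which takes iron-loaded transferrin into cells and is high in dividing cells, was at 1.39, 2.13 and 1.51 FPKM in hepatocytes, 11.04, 14.9 and 11.8 at D3 and 11.7, 10.3 and 11.9 at D14. In passaged IL6-iHPCs it reached 34.1, 24.7 and 26.3 FPKM in mouse-1 at P10, 36.5, 35.7 and 32.4 in mouse-2 at P10 and 22.0, 21.1 and 22.0 in mouse-1 at P35, and clone-1 had 11.9, 10.3 and 8.33. No cultured expansion sample overlapped the hepatocytes. Tfr2, an iron sensor of hepatocytes, was at 188 ± 13 FPKM in hepatocytes and fell to 38.8 ± 1.1 at D3 (−2.24 ± 0.07), 63.5 ± 3.4 at D14, 34.0 ± 1.4 in mouse-1 at P35 and 43.3 ± 2.3 in clone-1. In the P10 lines it was at 130 ± 5.2 and 127 ± 1.6 FPKM, under 2-fold below hepatocytes. The falls of Tfr2 at D14 and in passaged IL6-iHPCs, −1.55 ± 0.07 and −1.40 ± 0.06, came to −0.96 and −0.997 under quantile normalization, short of 2-fold. A ratio within a sample does not change when the sample is rescaled, so Tfrc was also set against Tfr2. The ratio was 0.00895 ± 0.0021 (SD, n = 3) in hepatocytes, 0.324 ± 0.050 at D3, 0.178 ± 0.022 at D14 and between 0.219 and 0.639 in the passaged lines. The rise of Tfrc was 2.34 ± 0.14 at D3 and 2.21 ± 0.14 at D14, and under either other scaling it came to between 0.83 and 0.89, short of 2-fold. Averaged over the passaged IL6-iHPC lines it was 3.09 ± 0.11, and at least 1.85 under every alternative, none of which left out a line.

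Tfrc fell on maturation. Against IL6-iHPCs, 1 member of 10 fell in IL6-iMHs over the 4 lines, Tfrc, against 21.4% of all genes, and none rose, against 6.68%. At an unadjusted p under 0.05, 8 members differed, against 91.8% of all genes. Limma-voom called 3 members lower, Tfrc, Hamp and Slc40a1 (−1.11), against 44.1% of all genes called in either direction. Tfrc came down to 3.51, 3.59 and 3.15 FPKM in mouse-1 at P10, 1.53, 1.91 and 2.49 in mouse-2 at P10, 1.70, 1.59 and 1.13 in mouse-1 at P35 and 3.21, 3.98 and 2.43 in clone-1. All IL6-iMH samples lay below all passaged IL6-iHPC samples for Tfrc (log2 change −2.73 ± 0.07, limma adjusted p = 1.2e-24). Leaving out any sample or changing the scaling kept this change between −3.20 and −2.19. Against hepatocytes the difference left was 0.35 ± 0.11, with a 95% interval of 0.12 to 0.58, but it was −0.39 under quantile normalization and −0.34 with medians made equal, and mouse-2 and mouse-1 at P35 overlapped the hepatocyte range.

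**Figure D2:**
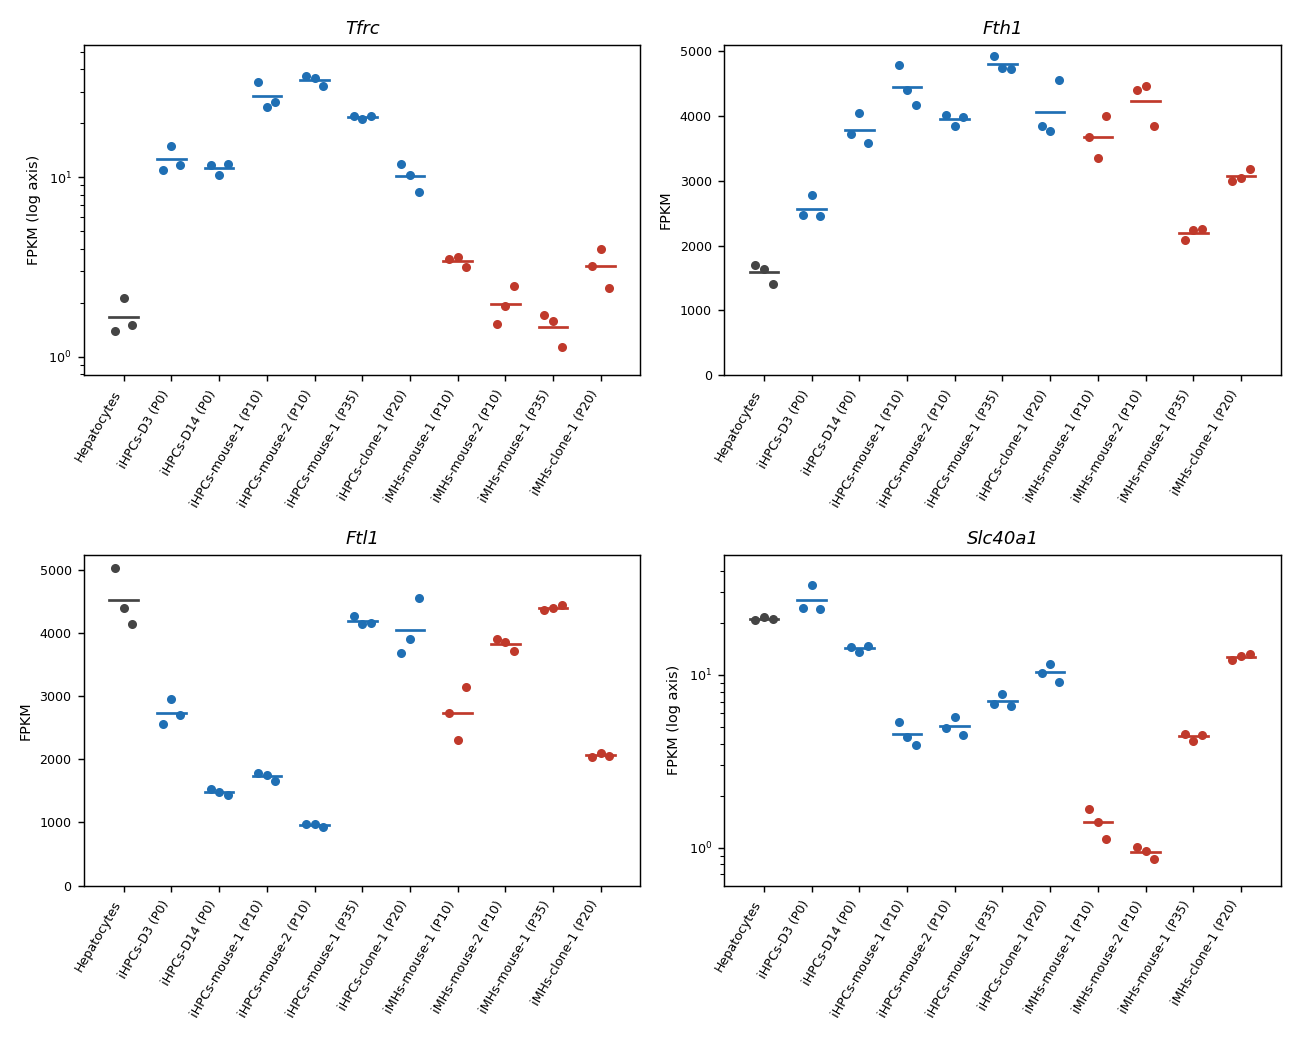
FPKM of the 4 members with an IRE, Tfrc, Fth1, Ftl1 and Slc40a1, in each hepatocyte and culture sample, with log axes for Tfrc and Slc40a1, points for samples and bars for group means (n = 3). Tfrc is at 2.13 FPKM or less in hepatocytes, 8.33 to 36.5 in expanding cells and 3.98 or less after maturation, while the ferritin genes stay above 931 FPKM in all samples.

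Of the genes of iron export, Slc40a1 fell in passaged cells and Cp rose. Slc40a1 had 21.1 ± 0.44 FPKM in hepatocytes and 27.1 ± 5.0 at D3, a difference that turned to −1.13 with medians made equal, and 14.2 ± 0.66 at D14. In passaged IL6-iHPCs it was at 4.54 ± 0.73, 5.03 ± 0.61, 7.07 ± 0.62 and 10.3 ± 1.2 FPKM in mouse-1 at P10, mouse-2 at P10, mouse-1 at P35 and clone-1 (−1.58 ± 0.08 against hepatocytes). The IL6-iMHs had 1.403 ± 0.28, 0.946 ± 0.077, 4.40 ± 0.22 and 12.7 ± 0.55 FPKM in the same order, so clone-1 was slightly higher after maturation (0.28 on the log2 scale) and the other lines were lower. Cp, the copper enzyme that oxidises exported iron so that transferrin can bind it, rose from 104, 124 and 106 FPKM in hepatocytes to 1014, 1086 and 922 at D3 and 740 ± 58 at D14. It was highest in mouse-1 and mouse-2 IL6-iHPCs at P10, at 2031 ± 81 and 1657 ± 47 FPKM, and came to 176 ± 5.1 at P35 and 235 ± 10 in clone-1. The rise averaged over the 4 passaged IL6-iHPC lines (2.45 ± 0.06) stayed between 1.22 and 2.65 under all alternatives, none of which left out a line. Its SE covers the spread within groups and not that between lines. Mouse-1 at P35 and clone-1 lay far nearer the hepatocyte mean of 111 FPKM than the P10 lines did.

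The ferritin subunits, which form the shell that stores iron, differed in their course. Ftl1, the light chain, exceeded Fth1, the heavy chain with the iron-oxidising site, in every hepatocyte sample, at 4523 ± 458 against 1586 ± 153 FPKM, an Fth1 to Ftl1 ratio of 0.351 ± 0.020. The ratio was 0.938 ± 0.030 at D3 and 2.56 ± 0.15 at D14, was 2.57 ± 0.093 and 4.13 ± 0.16 in the P10 lines, 1.14 ± 0.0078 at P35 and 1.00 ± 0.039 in clone-1, and in IL6-iMHs it was 1.35 ± 0.089 and 1.10 ± 0.063 in the P10 lines, 0.499 ± 0.016 at P35 and 1.49 ± 0.052 in clone-1. No culture ratio overlapped that of the hepatocytes, and with 3 samples against 3 an exact permutation test cannot go below p = 0.10. Taken alone, Fth1 rose by 1.26 ± 0.09 at D14 and 1.44 ± 0.07 in passaged IL6-iHPCs, but with medians made equal these became −0.055 and 0.20. Ftl1 fell by 1.61 ± 0.09 at D14, a change of −0.52 under quantile normalization. Both genes have many processed pseudogenes that can take or give reads.

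Hmox1, the enzyme that opens heme and frees its iron, had the largest rise among the members at D3. It was at 5.27, 5.39 and 5.45 FPKM in hepatocytes and at 907, 769 and 1026 at D3, a 168-fold difference (7.14 ± 0.09, adjusted p = 1.4e-32). At D14 it was back to 66.7, 57.1 and 60.9 FPKM (−3.84 ± 0.09 against D3), still 11.5-fold above hepatocytes. The passaged IL6-iHPCs had 186 ± 14, 71.3 ± 3.0, 54.5 ± 0.28 and 24.6 ± 0.60 FPKM in mouse-1 at P10, mouse-2 at P10, mouse-1 at P35 and clone-1. Of 9 genes of the NRF2 and BACH1 group, a stress-response pathway that is known to act on Hmox1, 6 rose at D3 and none fell, against 53.9% and 12.1% of all genes, led by Nfe2l2, the gene of NRF2, at 5.24 ± 0.08, and 5 fell from D3 to D14, led by Slc7a11 at −2.14 ± 0.13. With medians made equal the D3 count became 5 up and 2 down. From D3 to D14 as a whole, Hamp and Hmox1 fell among the members, against 5.05% of all genes, and none rose, against 5.12%.

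**Figure D3:**
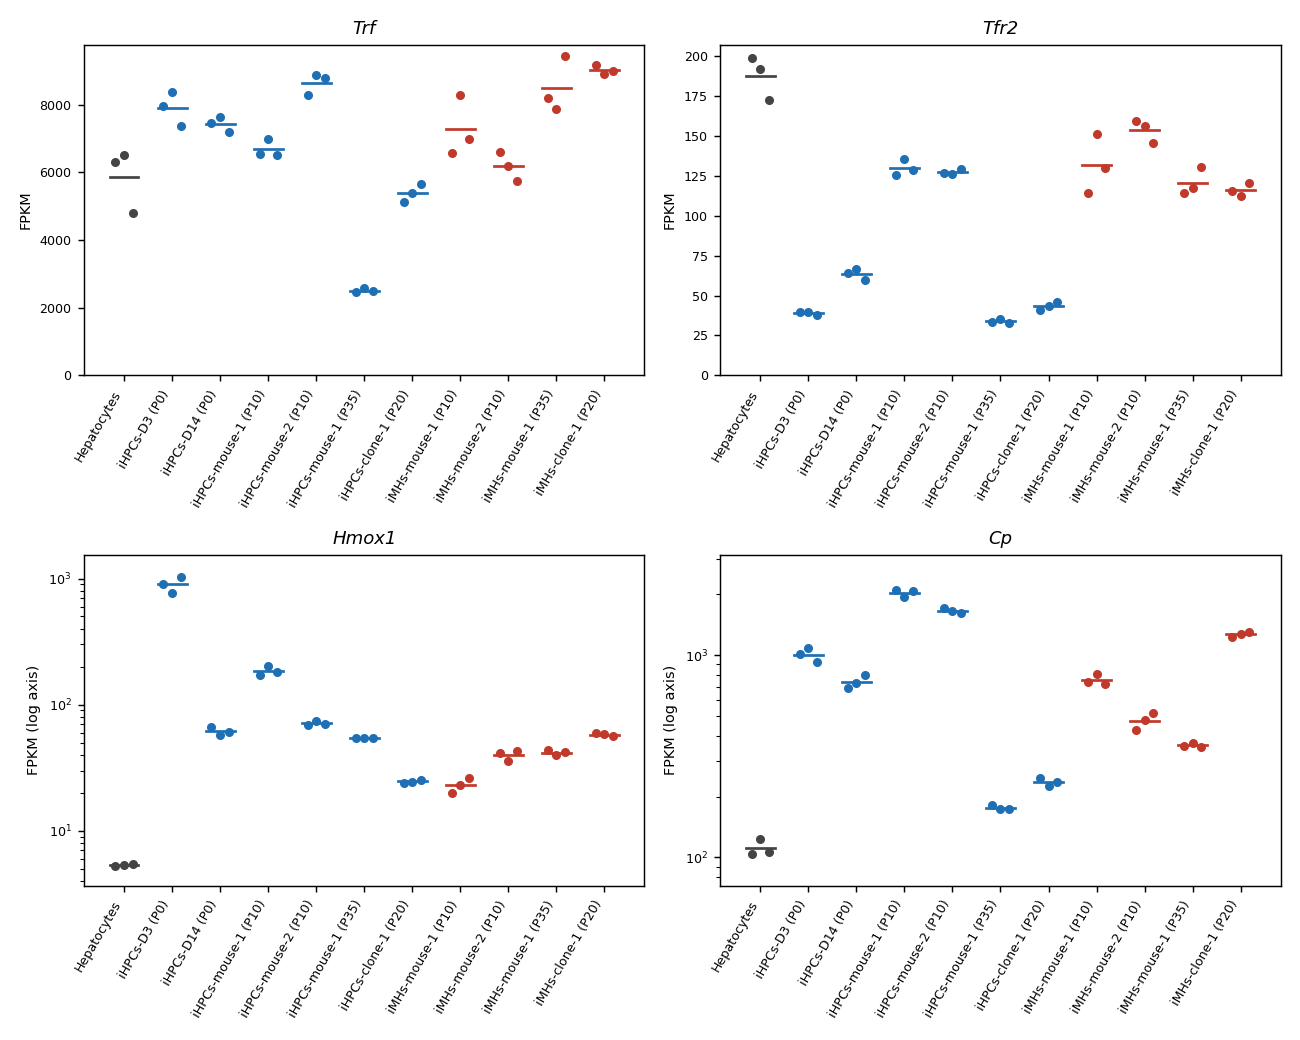
FPKM of Trf, Tfr2, Hmox1 and Cp in each hepatocyte and culture sample, with log axes for Hmox1 and Cp, points for samples and bars for group means (n = 3). Hmox1 stands at 769 to 1026 FPKM at D3 and at 202 or less in all other groups, and Tfr2 is lowest at D3, in mouse-1 IL6-iHPCs at P35 and in clone-1 IL6-iHPCs.

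In mouse-1, 6 members changed with long passage. From P10 to P35, 2 members rose (Hamp, as above, and Ftl1, 1.28 ± 0.09, which was 0.88 with medians made equal), against 24.8% of all genes, and 4 fell (Trf −1.42 ± 0.11, Tfr2 −1.90 ± 0.07, Hmox1 −1.75 ± 0.09, Cp −3.52 ± 0.08), against 8.94%. Under quantile normalization the change of Trf was 0.054. Summed hepatocyte markers were 7772 to 8726 FPKM at P10 and 1894 to 1941 at P35. Of the 7 markers 3 were called lower, led by Apob (−3.12), and none higher, against 8.94% and 24.8% of all genes. The median log2 change of the markers was −0.66, and their part in the falls of the members was not tested.

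The response to maturation differed between the 4 lines for 8 of the 10 members, all but Hamp and Hamp2, against 65.2% of all genes. Tfrc fell in every line, from −1.41 ± 0.14 in clone-1 to −3.60 ± 0.14 in mouse-2 at P10. Cp fell by 1.43 ± 0.08 and 1.81 ± 0.08 in the P10 lines and rose by 1.02 ± 0.08 in mouse-1 at P35 and 2.43 ± 0.08 in clone-1. Hmox1 fell by 2.96 ± 0.09 in mouse-1 at P10 and rose by 1.20 ± 0.09 in clone-1. Ftl1 rose by 2.00 ± 0.09 in mouse-2 at P10 and changed by −0.97 ± 0.09 in clone-1. Tfr2 and Trf rose by 1.80 ± 0.07 and 1.76 ± 0.11 in mouse-1 at P35, where both had been lowest. These changes within lines were taken from the values as deposited and were not recomputed under other scalings. The group means of Cp ran from 176 to 2031 FPKM in IL6-iHPCs and from 358 to 1271 in IL6-iMHs.

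**Figure D4:**
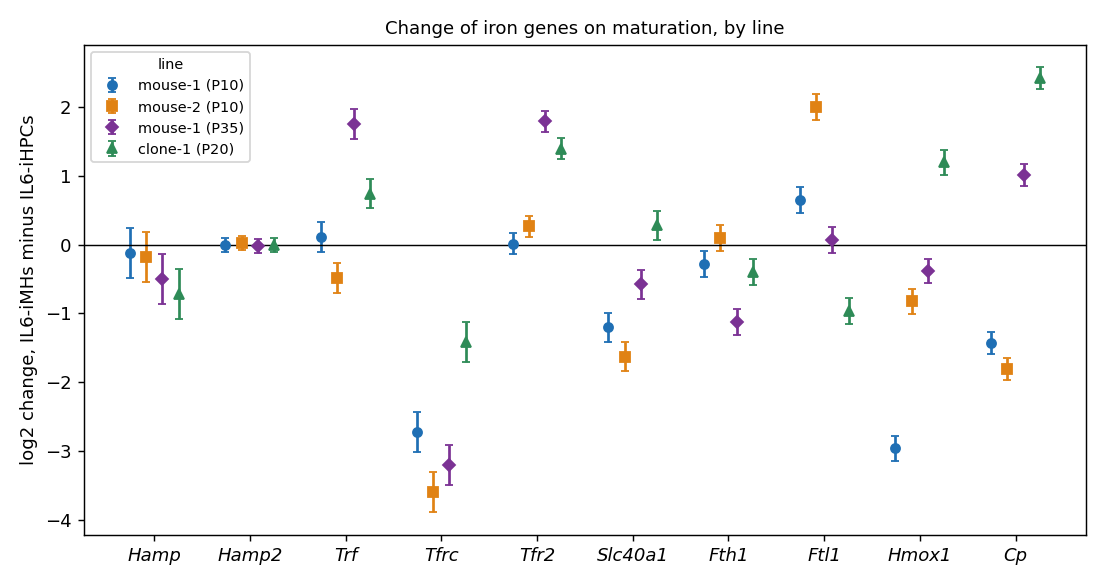
Log2 change of each member from IL6-iHPCs to IL6-iMHs in each of the 4 lines, from the limma fit, with error bars for the 95% interval. Tfrc lies below −1 in all 4 lines, while Cp and Hmox1 lie on both sides of 0.

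Against hepatocytes, IL6-iMHs kept 3 members up (Fth1 1.02 ± 0.07, Hmox1 2.64 ± 0.07, Cp 2.50 ± 0.06; background 24.8%) and 3 down (Hamp −8.93 ± 0.14, Hamp2, Slc40a1 −2.36 ± 0.08; background 7.79%). The call for Fth1 lay at the 2-fold limit and was lost with medians made equal (0.32), without hepatocyte replicate 3 (0.93) and without mouse-1 P10 IL6-iMH replicate 3 (1.00). Of the wider pathways, in passaged IL6-iHPCs against hepatocytes 6 of 15 tested genes of iron and heme transport rose, led by the metalloreductase Steap2 (4.38 ± 0.06), and 3 fell, led by hemopexin (Hpx, −2.69 ± 0.09), against 48.1% and 11.3% of all genes. None of 11 genes of heme synthesis and breakdown rose and 5 fell, led by biliverdin reductase Blvrb (−3.23 ± 0.07). In maturation 3 of the 11 rose, led by Blvrb (1.33 ± 0.05), and none fell, against 6.68% and 21.4% of all genes. Of 8 genes of iron-sulfur cluster assembly 1 rose and 2 fell in passaged IL6-iHPCs against hepatocytes. Of 6 genes of the IRP system and ferritin turnover 5 rose, led by Fbxl5 (3.21 ± 0.07), which marks IRP2 for degradation, and 1 fell, Aco1 (−1.15 ± 0.04), the gene of IRP1. With medians made equal the transport list had 5 up and 5 down, the heme list 0 up and 10 down, the iron-sulfur list 0 up and 5 down, and the IRP list 1 up and 1 down.

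In regenerating liver, 0 to 3 of the members changed at each time. At 6 h, 2 members rose (Hamp, Hmox1), against 4.78% of 11114 genes tested, and 1 fell (Slc40a1), against 11.5%. At 24 h, 1 rose (Cp, background 3.74%) and 2 fell (Hamp2, Slc40a1, background 4.16%). On day 3, 1 rose (Cp, background 3.33%) and 1 fell (Hamp2, background 2.49%), on day 7, 1 rose (Hmox1, background 7.81%) and none fell (background 1.03%), and on day 14 none rose (background 0.981%) or fell (background 2.00%), with 2 members, Ftl1 and Trf, at an unadjusted p under 0.05 (background 30.0%) and none called by limma-voom (background 6.78%). These comparisons share the normal livers. PHX-D3 replicate 2 stood apart from the other samples of its group, with correlations of 0.902 and 0.882 over log2(FPKM + 1) against 0.985 between the other two, so day 3 values are given with and without it. The median gene lay 0.28 (log2) below normal liver at 6 h, and the split of all calls at that time was 531 up and 1279 down as deposited but 824 up and 652 down with medians made equal.

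Hamp varied widely among normal livers, which had 372, 1151 and 55.1 FPKM. At 6 h it was 1439, 1785 and 3093 FPKM, above all normal livers (2.79 ± 0.77, adjusted p = 0.0068). This rise was 1.61 without normal replicate 3, the lowest, and 3.79 without normal replicate 2, the highest, and its adjusted p ranged from 0.00048 to 0.030 over all alternatives. The later livers overlapped the normal ones, with 407, 997 and 1114 FPKM at 24 h (adjusted p = 0.17), 649, 2220 and 1275 on day 3 (adjusted p = 0.053), 206, 188 and 240 on day 7 and 466, 484 and 388 on day 14. Leaving out normal replicate 2 brought the 24 h (2.41) and day 3 (3.08) differences past the threshold. The day 3 difference of 2.09 ± 0.77 was 1.66 without PHX-D3 replicate 2 (adjusted p = 0.15), and it also passed without PHX-D3 replicate 1 (2.54, adjusted p = 0.035) and under quantile normalization (2.32, adjusted p = 0.038). The day 7 difference, −0.45 with all samples, was a called fall of −1.63 without normal replicate 3 (adjusted p = 0.045) and 0.55 without normal replicate 2.

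Hamp2 fell at 24 h and on day 3. It had 31.2, 79.7 and 57.7 FPKM in normal livers, 32.9, 7.69 and 32.0 at 6 h and 0.439, 2.48 and 2.03 at 24 h, a 34.1-fold fall with no overlap (−4.43 ± 0.73, adjusted p = 0.00047). It also fell between 6 h and 24 h (−3.11 ± 0.73, adjusted p = 0.0043), the one member to do so, against 1.53% of all genes, while none rose, against 5.19%. Hamp was also lower at 24 h than at 6 h in all samples (−1.38, adjusted p = 0.17), and this was called with only the groups compared (adjusted p = 0.048). The difference between the genes was not tested. On day 3 its values were 6.45, 2.19 and 42.9 FPKM (−2.40 ± 0.73, adjusted p = 0.023), and the call was lost without PHX-D3 replicate 2 (−1.56, adjusted p = 0.093), PHX-D3 replicate 1 (adjusted p = 0.060), normal replicate 2 (adjusted p = 0.087) or normal replicate 3 (adjusted p = 0.068). By day 7 it was at 29.6, 27.0 and 40.2 FPKM and by day 14 at 44.3, 37.6 and 36.6. The Hamp2 to Hamp ratio was 0.0839, 0.0692 and 1.05 in normal livers, 0.00108 to 0.00248 at 24 h and 0.152 ± 0.014 on day 7.

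Among the regulators at 6 h, Socs3 rose from 4.66 ± 1.5 to 43.1 ± 9.1 FPKM (2.98 ± 0.65), Stat3 from 24.6 ± 2.3 to 79.8 ± 16 (1.64 ± 0.17) and Id1 from 8.13 ± 3.0 to 35.6 ± 6.9 (2.04 ± 0.44). Hjv (Hfe2) had 10.1, 36.2 and 10.3 FPKM at 6 h against 39.9, 36.4 and 43.3 in normal livers (−1.29 ± 0.35), with replicate 2 at the normal level, and −0.99 with medians made equal. Tmprss6 fell at 24 h by 1.01 ± 0.25, to 91.5 ± 18 FPKM from 184 ± 14, a change of −0.88 under quantile normalization. Bmp6 was at 1.59 ± 0.26 FPKM in normal livers and 0.539 ± 0.17 at 24 h, and Bmp2 rose on day 7 from 4.34 ± 0.73 to 10.9 ± 3.4 (1.13 ± 0.18, and 0.91 and 0.92 under the other scalings). Of 6 endothelial cell markers, 3 were also called higher on day 7 (background 7.81%) and none lower (background 1.03%). The part of cell composition in the changes of the regulators was not tested. Smad7 had group means of 1.76 to 3.26 FPKM throughout. Of the 7 genes of the IL6 and STAT3 arm, 3 rose and 1 fell at 6 h, against 4.78% and 11.5% of all genes, and 4 rose and none fell under both other scalings. At 24 h 4 rose and none fell, against 3.74% and 4.16%.

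Slc40a1 fell early after surgery. Its 26.7, 51.4 and 38.9 FPKM in normal livers went to 6.12, 8.62 and 6.19 at 6 h (−2.29 ± 0.27, adjusted p = 9.7e-06) and 17.5, 8.21 and 10.9 at 24 h (−1.61 ± 0.27, adjusted p = 0.00049), with no overlap. On day 3 it was at 28.3, 25.0 and 38.4 FPKM, on day 7 at 99.6, 68.6 and 64.5, above all normal livers (1.00 ± 0.27, adjusted p = 0.011, just short of 2-fold), and on day 14 at 27.6, 23.8 and 24.6. Kupffer cells, the macrophages of the liver, also make ferroportin. Their 12 markers summed to 319 to 496 FPKM in normal livers, 125 to 238 at 6 h with 10 of 12 lower (background 11.5%), 271 to 301 at 24 h, 271 to 840 on day 3, 1777 to 2588 on day 7 with all 12 higher (background 7.81%) and 214 to 297 on day 14, and their part in the course of Slc40a1 and Hmox1 was not tested. The marker calls were not recomputed under other scalings, and the median gene lay 0.28 (log2) lower at 6 h. In whole liver, fewer cells of a type and less RNA per cell cannot be told apart. In isolated hepatocytes these markers summed to 28.3 to 33.4 FPKM beside 21.1 FPKM of Slc40a1.

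Hmox1 rose at 6 h from 11.3, 13.9 and 13.2 FPKM to 101, 89.8 and 41.1 (2.41 ± 0.56, adjusted p = 0.0023) and on day 7 to 55.5, 50.6 and 46.6 (1.91 ± 0.56, adjusted p = 0.018). The day 7 call was lost without normal replicate 1 (adjusted p = 0.054), PHX-D7 replicate 1 (0.061) or PHX-D7 replicate 2 (0.051), though the groups did not overlap. At 24 h it had 28.6, 27.9 and 29.4 FPKM, and on day 3 it had 28.1, 135 and 11.6, with a difference of 1.42 ± 0.56 (adjusted p = 0.069) that was 0.48 without replicate 2 and 2.19 without replicate 3 (adjusted p = 0.0034). Red blood cell markers, 5 genes, summed to 87.4 to 150 FPKM in normal livers, 26.8 to 47.2 at 24 h and 238 to 310 on day 7. Of the 5, only Alas2 was called at 6 h (−1.32, background 11.5% lower) and at 24 h (−1.90, background 4.16% lower). On day 3 Hba-a2 was called higher (1.16, background 3.33%) and Alas2 lower (−2.30, background 2.49%). On day 7, 4 were called higher (background 7.81%) and none lower (background 1.03%). The part of these markers was not tested either.

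Cp, which is also an acute-phase protein of plasma, was at 193, 168 and 187 FPKM in normal livers, 369, 384 and 205 at 6 h and 435, 607 and 628 at 24 h (1.59 ± 0.42, adjusted p = 0.010). On day 3 it was at 347, 1343 and 267 FPKM (1.45 ± 0.42, adjusted p = 0.019), and without replicate 2 the difference was 0.73, under 2-fold. The call was also lost without normal replicate 2 (adjusted p = 0.061) or normal replicate 3 (adjusted p = 0.053). Tfrc was at 4.52, 4.21 and 9.14 FPKM in normal livers and at 15.6, 10.2 and 10.8 at 24 h, above all of them (0.97 ± 0.29, adjusted p = 0.018, just short of 2-fold). Tfr2 group means ran only from 105 to 158 FPKM, and those of Trf from 6412 to 10604. The Fth1 to Ftl1 ratio stayed between 0.283 and 0.559 in all 18 livers, and the IL6-iMHs of mouse-1 at P35, at 0.480 to 0.509, were the one cultured group to overlap them. Fth1 on day 7 was at 2587 ± 209 FPKM against 1808 ± 149, and Ftl1 at 6902 ± 700 against 4885 ± 406, differences that missed the threshold (adjusted p = 0.11 and 0.080).

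**Figure D5:**
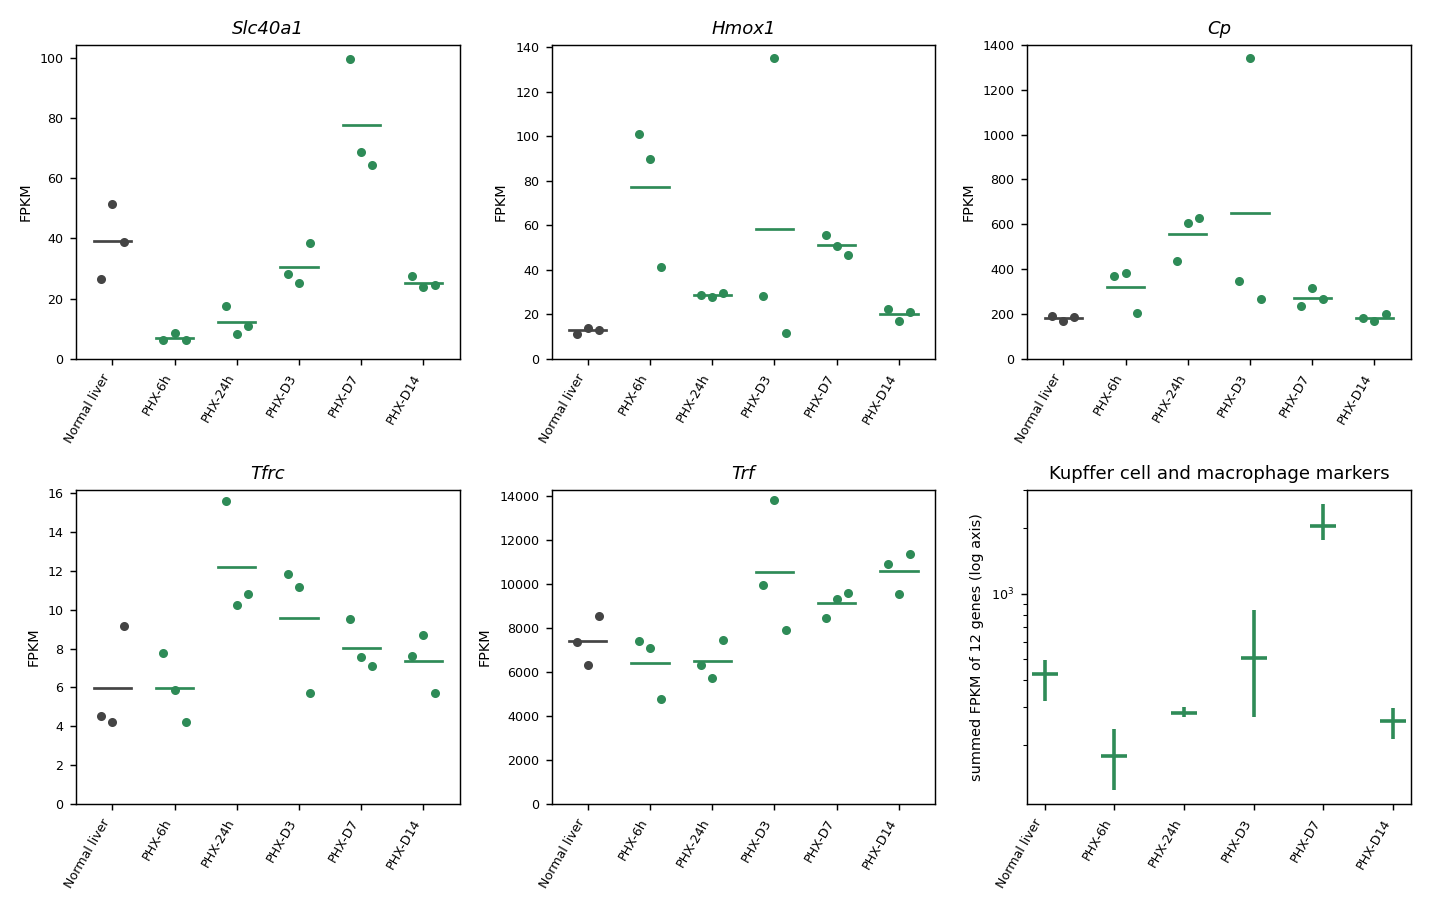
FPKM of Slc40a1, Hmox1, Cp, Tfrc and Trf in normal livers and at 5 times after 2/3 partial hepatectomy, with points for samples and bars for group means (n = 3), and on a log axis the summed FPKM of the 12 Kupffer cell and macrophage markers, with the mean and the range over samples. Slc40a1 is lowest at 6 h (6.12 to 8.62 FPKM) and highest on day 7 (64.5 to 99.6 FPKM), and the marker sum is lowest at 6 h (125 to 238 FPKM) and highest on day 7 (1777 to 2588 FPKM).

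Of the wider lists in liver, 3 of 14 genes of iron and heme transport rose at 6 h, led by the metalloreductase Steap4 (4.85 ± 0.42), and 3 fell, led by Steap3 (−1.29 ± 0.29), against 4.78% and 11.5% of all genes. At 24 h 4 of them rose, again led by Steap4 (4.14 ± 0.42), and none fell, against 3.74% and 4.16% of all genes. None of the 3 falls at 6 h was called under either other scaling. Of 11 heme genes 1 rose at 6 h, Alas1 (2.01 ± 0.65), which starts heme synthesis, and 2 fell, neither of them under the other scalings, and of 8 iron-sulfur genes 1 fell, Hscb (−1.78 ± 0.21). None of the 6 genes of the IRP system was called at any time.

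The genes whose levels followed those of 2 members most closely are given as a description. Over the 33 culture samples, which share lines and medium, Hamp was most like Ttc23 (Pearson's r = 0.94 on log2(FPKM + 1)), Ppp1r14a (0.93) and Ang (0.92), and Tfrc was most like Tet2, Phka1 and Elp4 (0.96 each). Over the 18 livers, Hamp was most like Cpt1b (0.83), Plin4 (0.81) and Reep3 (0.81), and Tfrc was most like Cldn2 (0.80), Rom1 (0.77) and Agpat3 (0.76).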

How the data were processed

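The authors deposited FPKM per gene and sample. The submitters' processing notes name TopHat 1.4.1, Cufflinks 1.3.0 and the mm10 build, with no role or order, and strand handling is not given in the sources used here. The 10 members and the pathway lists were chosen with earlier results of these data known. Columns were matched to samples by name, and 2 symbols listed again in each table were averaged. Of all genes above 0, 100% had values that were whole multiples of 1 read (within 0.01 read, wider for the highest counts), which gave the read totals, and these cover counting error only. The length of each gene was searched over a wide range for such a fit. For genes detected in few samples a fit was close to assured, so there the share is no check of the counts. A gene entered the tests when 3 samples or more reached 1 FPKM. Each table was fitted once, all its groups together, with limma 3.58.1 in R 4.3.3 on log2(FPKM + 1) with an intensity trend. The Benjamini-Hochberg adjustment ran over every tested gene, and the difference between lines was tested with limma's F-test. The fit was tested on simulated data. Named genes were the members, the 3 genes most correlated with Hamp and with Tfrc in each table, 8 hepcidin regulators (Bmp6, Bmp2, Hjv, Tmprss6, Stat3, Socs3, Id1, Smad7), and at most the largest called rise and fall of each pathway list in a comparison. Alternatives were the pseudocount, filter, fold limit, scaling, samples in the fit, a replicate block and leaving out each sample. A limma-voom fit to the recovered reads was added after seeing the data. A table of day 7 cultures, which lists none of the members, was not used. Promoters came from RefSeq (GRCm38.p6) and positions from GENCODE (GRCm38).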

Additional observations from a re-analysis of the deposited data

Results flagged for a closer look

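For 8 members the log2 change from IL6-iHPCs to IL6-iMHs differed between the 4 lines (limma F-test, adjusted over all genes). By the same rule 8038 of all 12328 genes tested (65.2%) differed between the lines, so such a difference was not particular to the members. The gap between the line with the highest and the line with the lowest change was 4.23 for Cp (adjusted p = 3.6e-24), from −1.81 in mouse-2 at P10 to 2.43 in clone-1. It was 4.17 for Hmox1 (adjusted p = 2.8e-21), from −2.96 in mouse-1 at P10 to 1.20 in clone-1. It was 2.97 for Ftl1 (adjusted p = 2.8e-17), from −0.97 in clone-1 to 2.00 in mouse-2 at P10. For Trf it was 2.24 (adjusted p = 2.2e-13) and for Tfrc 2.19 (adjusted p = 1.5e-10), with Tfrc lower after maturation in every line. For Slc40a1 it was 1.91 (adjusted p = 4.2e-12), for Tfr2 1.78 (adjusted p = 5.7e-16) and for Fth1 1.22 (adjusted p = 9.5e-09). Clone-1 differs from the other lines in both origin and passage, and these cannot be told apart for it.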

How the results depend on the processing

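Across 130 results (10 members in 13 comparisons), direction and side of the threshold were kept in all 130 with a filter at 5 FPKM, with no filter and with the replicate block, in 126 with a pseudocount of 0.1, 125 with only the groups compared, 123 with limma-voom, 102 with quantile normalization and 96 with equal medians, and in 1070 of 1128 fits that left out a sample. Numbers of changed members under other settings were 4 (quantile), 7 (no fold limit) and 5 (1.5-fold) for D14 against D3 instead of 2, and 10 with no fold limit for D3 and for IL6-iMHs against hepatocytes instead of 6. Of all 12328 genes tested, 1359, 8793 and 3526 were called in these settings for D14 against D3, instead of 1254. With no fold limit 11379 were called for D3 and 10832 for IL6-iMHs against hepatocytes, instead of 8135 and 4020. For IL6-iMHs against IL6-iHPCs the changed members were 2 (pseudocount 0.1), 3 (equal medians), 8 (no fold limit), 4 (1.5-fold) and 3 (voom) instead of 1. Of all genes these settings called 5004, 2580, 11301, 6473 and 5434, instead of 3459. For PHX-24h against PHX-6h the changed members were 2 (pseudocount, no fold limit, 1.5-fold and voom) and 3 (groups compared alone) instead of 1, for PHX-D7 2 (pseudocount, no fold limit, 1.5-fold and voom) instead of 1, and for PHX-D3 0 (groups compared alone) instead of 2. Of all 11114 genes tested, these settings called 1472, 4021, 2422, 1509 and 758 for PHX-24h against PHX-6h, instead of 747. They called 1519, 3262, 2130 and 1553 for PHX-D7 instead of 982, and 281 for PHX-D3 instead of 647. Leaving out 1 sample gave 1 to 2 changed members for PHX-24h against PHX-6h, 0 to 3 for PHX-D3 and 0 to 3 for PHX-D7. Among changes called in either fit, equal medians turned the sign of Fth1 at D14 (−0.055), Slc40a1 at D3 (−1.13) and Trf at D3 (−1.02), and quantile normalization that of Trf in passaged IL6-iHPCs (1.05) and from P10 to P35 (0.054). Over all 130 results equal medians turned 20 signs, 9 of them with an adjusted p under 0.05 after the turn, and quantile normalization 13 and 7. These include Fth1 at D3 (−0.76), Trf at D14 (−0.96) and in IL6-iMHs (−0.30) against hepatocytes with equal medians, and Ftl1 at D3 (0.78), in passaged IL6-iHPCs (0.29) and in maturation (−0.44) under quantile normalization. The cause was not tested. Of all genes called at D3, D14 and in passaged IL6-iHPCs against hepatocytes, 81.6%, 79.4% and 81.0% were higher as deposited and 35.5%, 36.8% and 35.5% with equal medians. For IL6-iMHs against IL6-iHPCs these shares were 23.8% and 70.4%, against hepatocytes 76.1% and 38.5%, for P35 against P10 73.5% and 48.3%, for D14 against D3 50.3% and 65.0%, for PHX-24h against PHX-6h 77.2% and 43.0%, for PHX-D7 88.4% and 74.4% and for PHX-D14 32.9% and 45.1%. Samples with the same replicate number did not deviate together (mean r −0.015 in culture and −0.030 in liver, with 4 of 33 and 5 of 18 samples most like their own number), so the samples share only a number. With the replicate block the number of changed members was 8 for D14 against hepatocytes, 2 for D14 against D3 and 3 for PHX-6h, as without it. The counts over all genes were 7758, 1254 and 1809, against 7758, 1254 and 1810 without it.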
